A study of Rattus norvegicus with 2 samples.

Results

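The 10 chemokine genes Ccl2, Ccl7, Ccl3, Ccl4, Ccl19, Cxcl1, Cxcl2, Cxcl12, Cxcl13 and Cxcl14 were followed in single-cell RNA-seq of skeletal muscle. They were chosen by gene name, as 10 of the 23373 rat genes counted in both libraries, and each name also occurred once among the 25906 mouse genes counted in the chimera library. Muscle was taken from the whole body of 1 Sprague Dawley (SD) rat and of 1 rat-mouse chimera, which is a rat whose tissues also hold cells from mouse induced pluripotent stem cells (iPSCs) introduced at the embryo stage. Per the methods of the study, the iPSCs carried Dmd mdx, a mutation of the dystrophin gene that had been edited to restore the reading frame, and Pax7-nGFP, a reporter of muscle stem cells, and the host embryos were of the SD strain. The tissue was digested with collagenase, red blood cells were lysed, and cells stained by a dye of living cells were collected by flow cytometry before droplet capture. The labels give neither age nor genotype, and both groups were 1 animal and 1 library, so no difference below has a replicate check and cells of 1 library are not replicates of a condition.

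Chemokines are small secreted proteins that guide leukocytes along concentration gradients by binding G protein-coupled receptors on the moving cell. Inflammatory chemokines are made on demand, often downstream of the transcription factor NF-kB, whereas homeostatic chemokines are made steadily by stromal and endothelial cells and place leukocytes and stem cells in their niches. In skeletal muscle, resident macrophages, mast cells and fibro-adipogenic progenitors (FAPs), the fibroblast-like stromal cells of the tissue, are known sources of them, and enzymatic digestion of tissue is itself known to induce inflammatory and immediate early genes.

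Transcripts were counted as unique molecular identifiers (UMIs), and levels are given as CPM, the UMIs of the gene per 1000000 UMIs of the same species in the same cells, with exact 95% Poisson intervals in brackets. Shares of cells carry exact 95% binomial intervals, and all intervals cover counting error only. After filtering, 8816 cells of the SD rat library were left, and the chimera library gave 8230 rat cells, with at most 20% of UMIs on mouse genes, and 1847 mouse cells, with at least 80%. A further 1653 chimera barcodes were mixed and entered no class. The rat cells of the chimera held a median of 11.2% of their UMIs on mouse genes. The 2 libraries shared 43 cell barcodes. Cells were grouped into classes by markers of cell types that held no chemokine and no chemokine receptor, after clustering without those genes, so the classes were not built on the genes described. Leading and next classes were ranked among named classes of at least 20 cells, and a class of cycling cells was not ranked. The 121 cycling cells of the SD rat raised 7 muscle progenitor and 10 FAP markers. The 117 of chimera rat cells raised 8 FAP and 7 muscle progenitor markers. The cycling class may thus mix cell types, and need not hold the same cells in both libraries. All measured markers of the FAP-like, endothelial cell (EC)-like, mast cell-like and pericyte or mural-like (mural-like below) classes were found more often in the class than in the rest of its population. The clusters were named from those same markers, so this does not test the names. It held for 6 of 7 markers of the chimera rat lymphatic endothelial cell (LyEC)-like class and 18 of 19 of the mouse myeloid-like class. The mouse cells formed no mast cell-like, mural-like or LyEC-like class.

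Cxcl1 and Cxcl2 are printed first because they are neighbours on rat chromosome 14, their starts 12066 bases apart in GRCr8, and yet differed in the classes that held them. The RefSeq promoter table of GRCr8 (250 bases before to 50 after the start) held 7 of the 10 genes, Ccl7, Ccl19, Cxcl1, Cxcl2, Cxcl12, Cxcl13 and Cxcl14, while the libraries were counted on mRatBN7.2, so the coordinates serve to place the printed bases only. Both promoters are on the minus strand and are given 5′ to 3′ in the direction of the gene, Cxcl1 at chr14:17479272-17479571 and Cxcl2 at chr14:17467206-17467505. Capitals mark matches to the NF-kB consensus motif, searched on both strands. In Cxcl1, 2 overlapping matches form 1 stretch of 11 bases that begins 84 bases before the start, and in Cxcl2, 3 overlapping matches form 1 stretch of 11 bases that begins 74 bases before it. Cxcl14, at chr17:8322900-8323199 on the plus strand, is shown as a gene of the same family that was highest in FAP-like cells and holds no match in this window. The motif was found in 1400 of 33469 promoters of the table (4.18%), in 2 of the 7 genes, and a match describes the letters, not a bound site.
Cxcl1: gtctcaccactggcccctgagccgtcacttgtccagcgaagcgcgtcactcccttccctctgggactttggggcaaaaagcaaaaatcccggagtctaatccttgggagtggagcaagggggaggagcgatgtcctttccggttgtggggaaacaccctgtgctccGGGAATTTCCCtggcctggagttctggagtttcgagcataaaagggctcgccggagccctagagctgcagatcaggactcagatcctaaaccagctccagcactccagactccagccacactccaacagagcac
Cxcl2: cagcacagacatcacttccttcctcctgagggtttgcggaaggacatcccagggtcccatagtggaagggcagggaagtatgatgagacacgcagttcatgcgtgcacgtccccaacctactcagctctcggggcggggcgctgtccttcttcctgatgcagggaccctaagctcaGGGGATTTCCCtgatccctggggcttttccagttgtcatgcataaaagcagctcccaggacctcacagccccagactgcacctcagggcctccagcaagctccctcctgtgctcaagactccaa
Cxcl14: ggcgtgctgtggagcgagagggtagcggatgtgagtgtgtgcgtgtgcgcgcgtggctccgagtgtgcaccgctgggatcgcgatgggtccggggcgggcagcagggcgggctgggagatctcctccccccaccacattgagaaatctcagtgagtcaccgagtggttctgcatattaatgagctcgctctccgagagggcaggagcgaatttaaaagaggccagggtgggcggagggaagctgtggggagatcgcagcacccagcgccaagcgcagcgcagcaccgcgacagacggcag

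Ccl2, the main attractant of monocytes through the receptor CCR2, had its highest level in mast cell-like cells of both libraries. The level was 29991 CPM (29495 to 30495) in 74 SD rat mast cell-like cells and 29876 CPM (29254 to 30509) in the 53 of the chimera, 2.67 and 3.32 times that of FAP-like cells, the next class. At least 1 Ccl2 UMI was found in 73 of the 74 SD rat cells (98.7%, 92.7 to 100.0) and in 52 of the 53 chimera cells (98.1%, 89.9 to 100.0). After every cell was thinned to 1000 UMIs the shares were still 98.7% and 98.04%, beside 71.8% and 68.4% of FAP-like cells. The UMIs were not those of a few cells, and the cell with most of them held 4.03% of the class's Ccl2 UMIs in the SD rat and 6.25% in the chimera. FAP-like cells followed with 11236 CPM in the SD rat and 8990 CPM in the chimera, and myeloid-like cells with 10589 and 6979 CPM. By number of molecules FAP-like cells were the largest source, holding 408264 of the 520858 Ccl2 UMIs of SD rat cells and 258144 of the 397573 of chimera rat cells.

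Ccl7, a relative of Ccl2 that also attracts monocytes, was led by myeloid-like cells instead. Its level there was 3978 CPM (3923 to 4032) in the SD rat and 2560 CPM (2530 to 2591) in chimera rat cells, and 1052 and 1207 CPM in FAP-like cells. Mast cell-like cells, which led Ccl2, held only 188 and 174 CPM of Ccl7. The pair thus had different leading classes, but within myeloid-like and FAP-like cells Ccl7 was found more often where Ccl2 was found. In myeloid-like cells of the SD rat, Ccl7 was found in 354 of 518 cells with Ccl2 (68.3%) and in 15.1% of those without it. In FAP-like cells it was found in 50.8% of cells with Ccl2 and 19.3% of those without in the SD rat, and in 50.9% and 18.8% in the chimera, and after each cell was thinned to 1000 UMIs the SD rat shares were 35.0% and 8.65%.

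**Figure D1:**
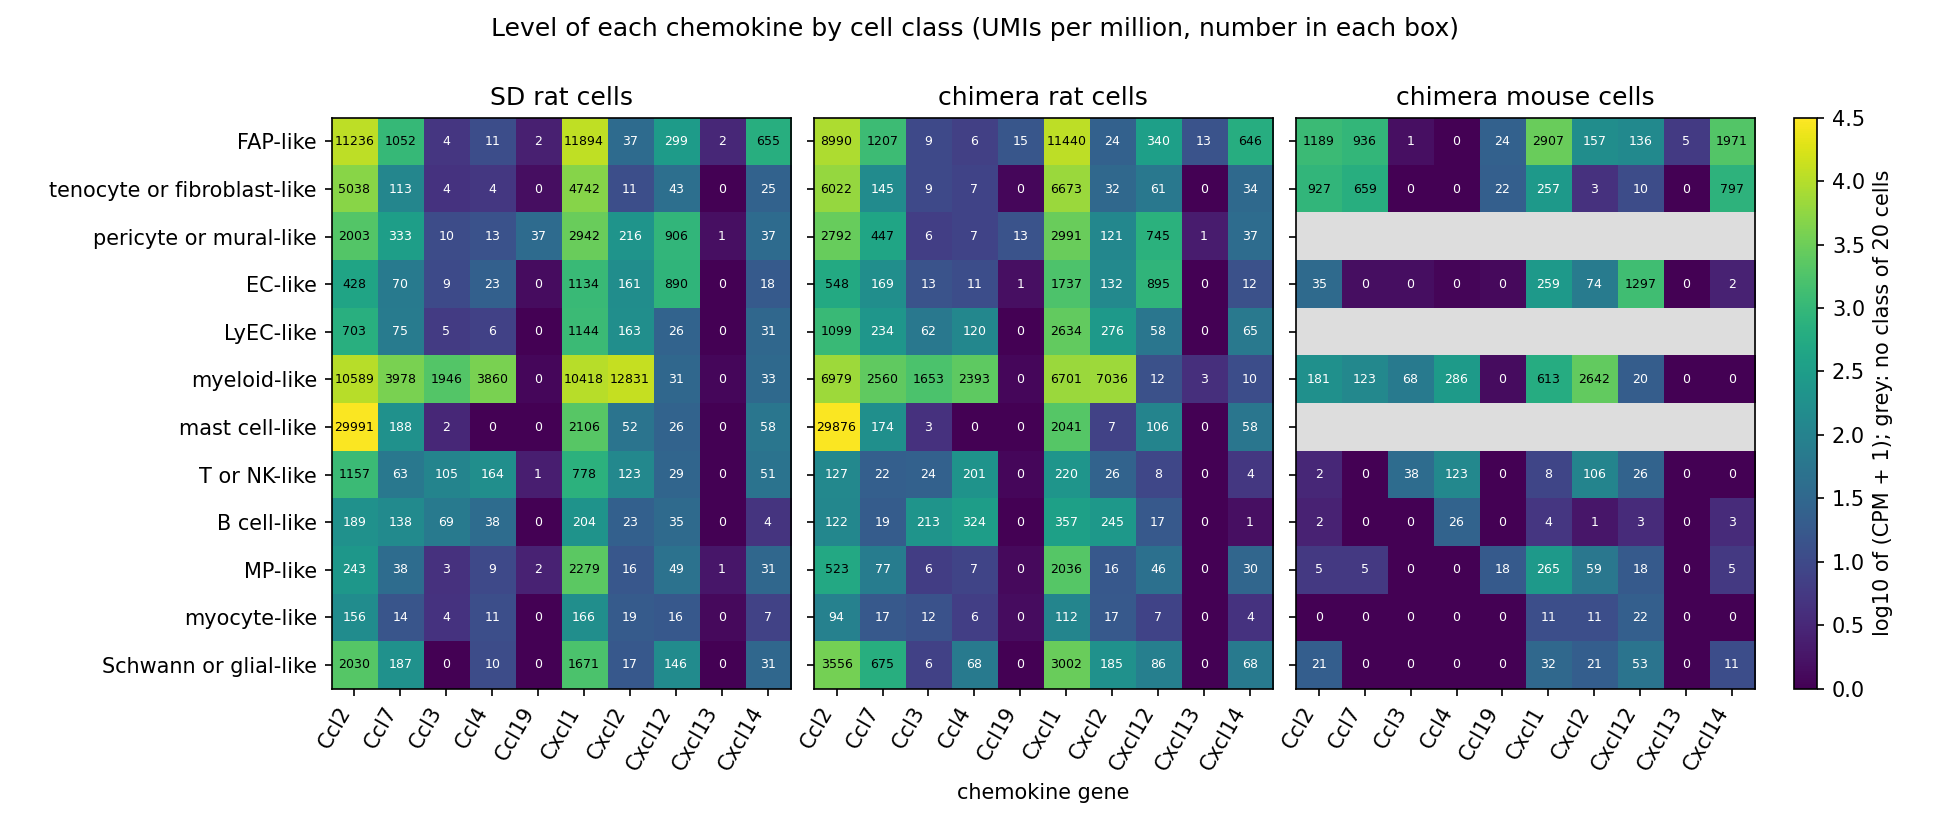
Level of each chemokine (columns) in each class of cells (rows) for SD rat cells, chimera rat cells and chimera mouse cells, in CPM, printed in each box, with colour on a log10 scale of CPM + 1 and grey where no class of 20 cells existed. The cycling class is not shown. In rat cells Ccl2 peaks in mast cell-like cells, Ccl3, Ccl4 and Cxcl2 in myeloid-like cells, Cxcl14 in FAP-like cells and Cxcl12 in EC-like and mural-like cells. Mouse Ccl2 peaks in FAP-like cells (1189 CPM), where no mast cell-like class was formed.

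Ccl3 and Ccl4, chemokines that draw monocytes, T cells and natural killer (NK) cells, were highest in leukocytes. Ccl3 reached 1946 CPM (1908 to 1984) in SD rat and 1653 CPM (1629 to 1678) in chimera rat myeloid-like cells, and Ccl4 reached 3860 CPM (3806 to 3914) and 2393 CPM (2364 to 2423). The next classes ranked were T or NK-like cells in the SD rat, at 105.5 CPM for Ccl3 and 164 CPM for Ccl4, and B cell-like cells in the chimera, at 213 and 324 CPM. The cycling class, which was not ranked, held 210.0 CPM of Ccl4 in the SD rat and 4.03 CPM in the chimera. In FAP-like cells the levels were 4.07 and 9.02 CPM for Ccl3 and 10.7 and 6.23 CPM for Ccl4, and Ccl4 was not found in any of the 74 SD rat or 53 chimera mast cell-like cells, which allows levels of up to 6.48 and 10.2 CPM (3 counts per library).

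Within the myeloid-like class Ccl3 and Ccl4 divided between clusters. In the SD rat, the cluster of 351 cells led by C1qa, a complement gene of resident macrophages, held 6294 CPM of Ccl4 and 1966 CPM of Ccl3. The cluster of 121 cells led by Lyz2 held 321 and 3704 CPM, and the 33 cells led by S100a9, a gene of neutrophils and monocytes, held 2329 CPM of Ccl3 with no Ccl4 UMI. The 99 cells led by RT1-Da, a gene of MHC class II, were lower for both, at 650.0 CPM of Ccl4 and 432 CPM of Ccl3. Ccl4 was thus highest in the complement-expressing cells, and Ccl3 in the Lyz2-led and S100a9-led cells. In the chimera, the cluster of 530 cells led by C1qa held 4294 CPM of Ccl4 and 1432 CPM of Ccl3, and the 286 cells led by Il1b, which encodes the cytokine interleukin-1 beta, held 77.7 and 2655 CPM. The chimera's 121 S100a9-led cells departed from this division, with 2908 CPM of Ccl4 beside 4195 CPM of Ccl3, as did a further 33 cells led by Il1b and then by complement genes, with 3153 and 1270 CPM.

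**Figure D2:**
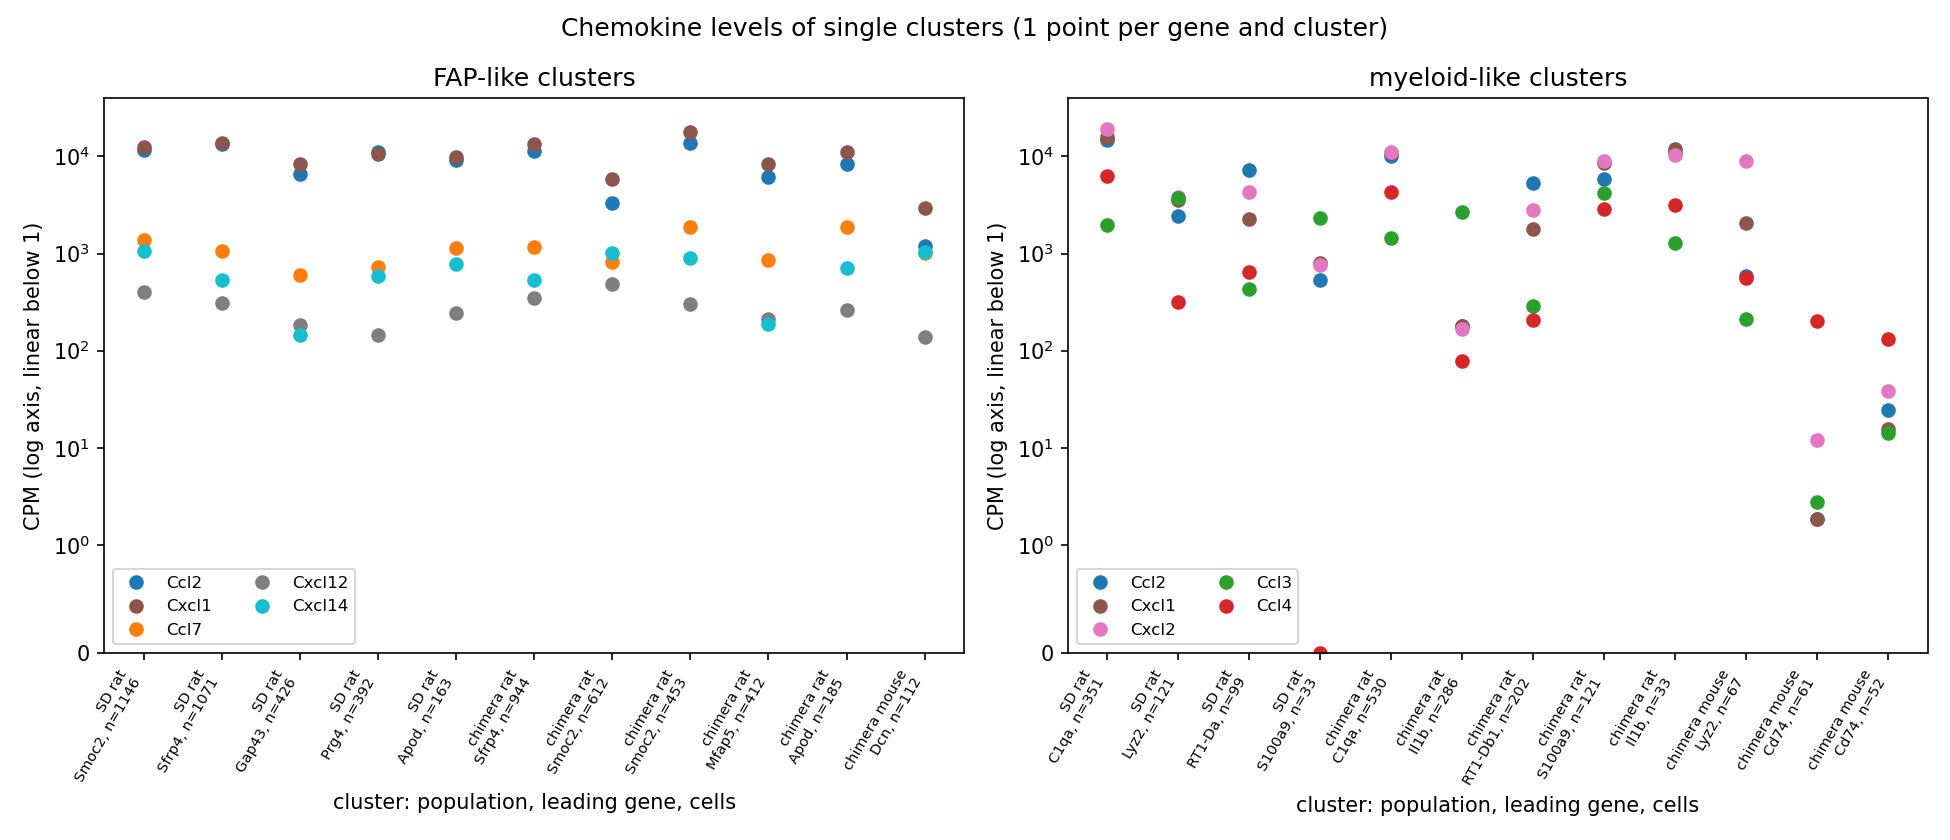
Levels of chemokines in single clusters of at least 20 cells, in CPM on an axis that is logarithmic above 1 and linear below it, for FAP-like clusters (left) and myeloid-like clusters (right), each named by population, leading gene and number of cells. Ccl4 spans 0 to 6294 CPM between myeloid-like clusters of the SD rat, and the 2 Smoc2-led FAP-like clusters of chimera rat cells differ in Ccl2 and Cxcl1 but not to that extent in Cxcl14.

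Cxcl1 and Cxcl2 both recruit neutrophils through CXCR2. Cxcl1 was spread over stroma and macrophages, with 11894 CPM (11859 to 11930) in SD rat FAP-like cells and 11440 CPM (11401 to 11479) in those of the chimera, and 10418 and 6701 CPM in myeloid-like cells. Cxcl2 was a myeloid transcript, with 12831 CPM (12734 to 12929) in SD rat and 7036 CPM (6986 to 7087) in chimera rat myeloid-like cells, against 37.0 and 23.9 CPM in FAP-like cells. The cycling class, which was not ranked and need not hold the same cells in both libraries, held 1388 CPM of Cxcl2 in the SD rat and 8.06 CPM in the chimera. Among the ranked classes, myeloid-like cells exceeded the next for Cxcl2 59.4-fold in the SD rat and 25.5-fold in the chimera. In those cells the pair occurred together: 441 of 518 SD rat myeloid-like cells with Cxcl1 also held Cxcl2 (85.1%), against 32.6% of those without Cxcl1, and the shares after thinning to 1000 UMIs were 85.8% and 23.6%. In SD rat FAP-like cells Cxcl2 was found in 9.48% of cells with Cxcl1 and 7.76% of those without it. Ccl2 and Cxcl1, the abundant pair of FAP-like cells, were found together in 2704 of 3198 SD rat cells. Cxcl1 was found in 94.5% of cells with Ccl2 and 73.9% of those without, or in 88.7% and 50.7% after thinning.

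Ccl2 and Cxcl1 also reached other stromal classes. In tenocyte or fibroblast-like cells Ccl2 stood at 5038 CPM in the SD rat and 6022 CPM in chimera rat cells, and Cxcl1 at 4742 and 6673 CPM. In mural-like cells, the contractile cells around vessels, Ccl2 stood at 2003 and 2792 CPM and Cxcl1 at 2942 and 2991 CPM. In muscle progenitor (MP)-like cells Cxcl1 stood at 2279 and 2036 CPM and Ccl2 at 243 and 523 CPM, and in myocyte-like cells Ccl2 was at 156 and 93.7 CPM. In T or NK-like cells of the SD rat, 1 cell held 40.6% of the Ccl2 UMIs, and the level was 1157 CPM with it and 702 CPM without it.

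Cxcl12, the ligand of CXCR4 that retains leukocytes and progenitors in their niche, was a vascular transcript. In the SD rat it stood at 906 CPM (863 to 950) in mural-like cells and 890.1 CPM (863 to 918) in EC-like cells, intervals that overlapped. The single mural-like cluster of the SD rat, of 385 cells, also raised all 10 measured EC markers beside 9 of its own, as did the 158-cell mural-like cluster of the chimera (680 CPM of Cxcl12), and their part in the result was not tested. The chimera's 258 Rgs5-led mural-like cells held 836 CPM. In chimera rat cells as classes it stood at 895 CPM (865 to 926) in EC-like and 745 CPM (712 to 779) in mural-like cells, and FAP-like cells held 299 and 340 CPM. By number, FAP-like cells still held most of the molecules, 10875 of 17655 Cxcl12 UMIs in the SD rat and 9756 of 16146 in chimera rat cells. Among endothelial clusters it was uneven. The SD rat's largest EC-like cluster, of 633 cells led by Flt1, a VEGF receptor gene, held 1180 CPM, and the 60 cells led by Selp, a gene of venous endothelium, held 82.1 CPM. The chimera gave the same order, with 1241 CPM in 453 Fabp4-led cells and 95.5 CPM in 70 cells led by Plvap and Selp. In mouse EC-like cells of the chimera the highest cluster held 2955 CPM, in 142 cells led by Mgp, and the 108 Selp-led cells held 234 CPM.

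Cxcl14, a homeostatic chemokine of fibroblasts and epithelia, was a FAP transcript. It stood at 655 CPM (646 to 663) in SD rat and 646 CPM (637 to 656) in chimera rat FAP-like cells, 11.2 and 9.44 times the next class ranked. The cycling class, which was not ranked, held more than that next class, at 96.2 CPM in the SD rat and 208 CPM in the chimera. At least 1 UMI was found in 68.7% of SD rat FAP-like cells (67.1 to 70.3) and 71.8% of chimera rat ones (70.1 to 73.6), and in 3.73% and 1.67% of EC-like cells, a class not known as its source. Clusters of FAP-like cells led by Smoc2, an extracellular matrix gene, had the highest levels, 1055 CPM in 1146 SD rat cells and 1015 and 907 CPM in the chimera's 612 and 453 cells. The lowest were 144 CPM in 426 SD rat cells led by Gap43, with Pi16 as the next gene, and 190 CPM in 412 chimera rat cells led by Mfap5.

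The Smoc2-led cells of the chimera also show which chemokines varied within one stromal identity. The cluster of 612 cells held 3342 CPM of Ccl2 and 5809 CPM of Cxcl1, whereas the cluster of 453 cells held 13898 and 17725 CPM. For Ccl7 the values were 816 and 1892 CPM, and for Cxcl12 they ran the other way, 485 and 305 CPM. A list of immediate early genes summed to 22420 CPM in the first cluster and 8480 CPM in the second, and a list of NF-kB target genes to 1660 and 3475 CPM; their part in the result was not tested. The SD rat formed a single Smoc2-led FAP-like cluster, with 11548 CPM of Ccl2, 12502 CPM of Cxcl1, 12314 CPM of the immediate early list and 2863 CPM of the NF-kB list.

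Ccl19 and Cxcl13, which organise lymphoid tissue through CCR7 and CXCR5, were rare and came from very few cells. Ccl19 had 134 UMIs in 51 of 8816 SD rat cells and 483 UMIs in 66 of 8230 chimera rat cells. Its leading class was mural-like in the SD rat, at 36.7 CPM (28.6 to 46.5), and FAP-like in the chimera, at 15.3 CPM (13.9 to 16.8), where mural-like cells held 13.4 CPM (9.28 to 18.7) with an overlapping interval. A single chimera FAP-like cell held 235 Ccl19 UMIs, 48.7% of all, along with 975 UMIs of Ccl21, the other CCR7 ligand, and the next cell held 25. In the SD rat, 2 mural-like cells came first, with 26 and 23 of the 69 Ccl19 UMIs of that class, so its interval rests on few cells. They held 2 and 1 UMIs of the mural marker Rgs5, and the second also 3 of the FAP marker Pdgfra. Their depths were 8391 and 16572 UMIs, beside a class median of 3089. Mural-like cells still led SD rat Ccl19 under 9 of 10 alternatives, and FAP-like cells led it at a mitochondrial limit of 10%.

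Cxcl13 had 86 UMIs in 34 SD rat cells and 417 UMIs in 62 chimera rat cells, with FAP-like levels of 2.20 CPM (1.75 to 2.74) and 13.1 CPM (11.8 to 14.5). The chimera's first cell held 106 Cxcl13 UMIs with 22 of Ccl19, 61 of Cr2, a complement receptor of follicular dendritic cells and B cells, 45 of Enpp2 and 28 of Vcam1. Its second held 79 Cxcl13 UMIs with 24 of Ccl19 and 24 of Tnfsf11, the gene of RANKL. These were FAP-like cells by cluster, and neither held a UMI of the leukocyte gene Ptprc. FAP-like cells with at least 5 UMIs of Ccl19 or Cxcl13 numbered 6 in the SD rat, 16 in chimera rat and 3 in mouse cells. Of 12 genes of lymphoid stroma, the 16 chimera cells held a median of 5 and the other 2590 FAP-like cells a median of 2, at median depths of 12053 and 10616 UMIs. Tnfsf11 was found in 31.3% of the 16 and in none of the others, Il7 in 43.8% and 2.12%, and Vcam1 in 62.5% and 11.9%. Cr2, Tnfsf13b, Enpp2, Tnfrsf1a and Ltbr were also found more often in the 16, but the list was not uniform. Madcam1 and Bst1 were found in none of the 16 and in 0.27% and 3.17% of the others. Pdpn was about equal, at 50% and 47.3%, and Fdcsp was found in neither set. In the SD rat the 6 cells held a median of 3 and the other 3192 a median of 2, at 17125 and 10919 UMIs, and Tnfsf11 was found in none of the 6. In rat cells of both libraries depth moved with these medians, and its part in the result was not tested. The 3 mouse cells held a median of 4 of the 11 genes measured and the other 125 a median of 3, at 12492 and 14691 UMIs.

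How few cells held the UMIs differed by gene more than by library. In SD rat cells 50% of the UMIs lay in 624 cells for Ccl2, 644 for Cxcl1, 604 for Cxcl12, 424 for Cxcl14 and 243 for Ccl7. The myeloid chemokines were more concentrated, with 94 cells for Cxcl2, 57 for Ccl3 and 39 for Ccl4. The lymphoid chemokines needed 5 cells for Ccl19 and 4 for Cxcl13. Chimera rat cells gave a like series, with 564, 655, 512, 383 and 246 cells, then 143, 97 and 61, then 2 for Ccl19 and 3 for Cxcl13. The Ccl4 molecules of SD rat cells were thus 50% accounted for by 0.442% of cells, all 39 of them myeloid-like.

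**Figure D3:**
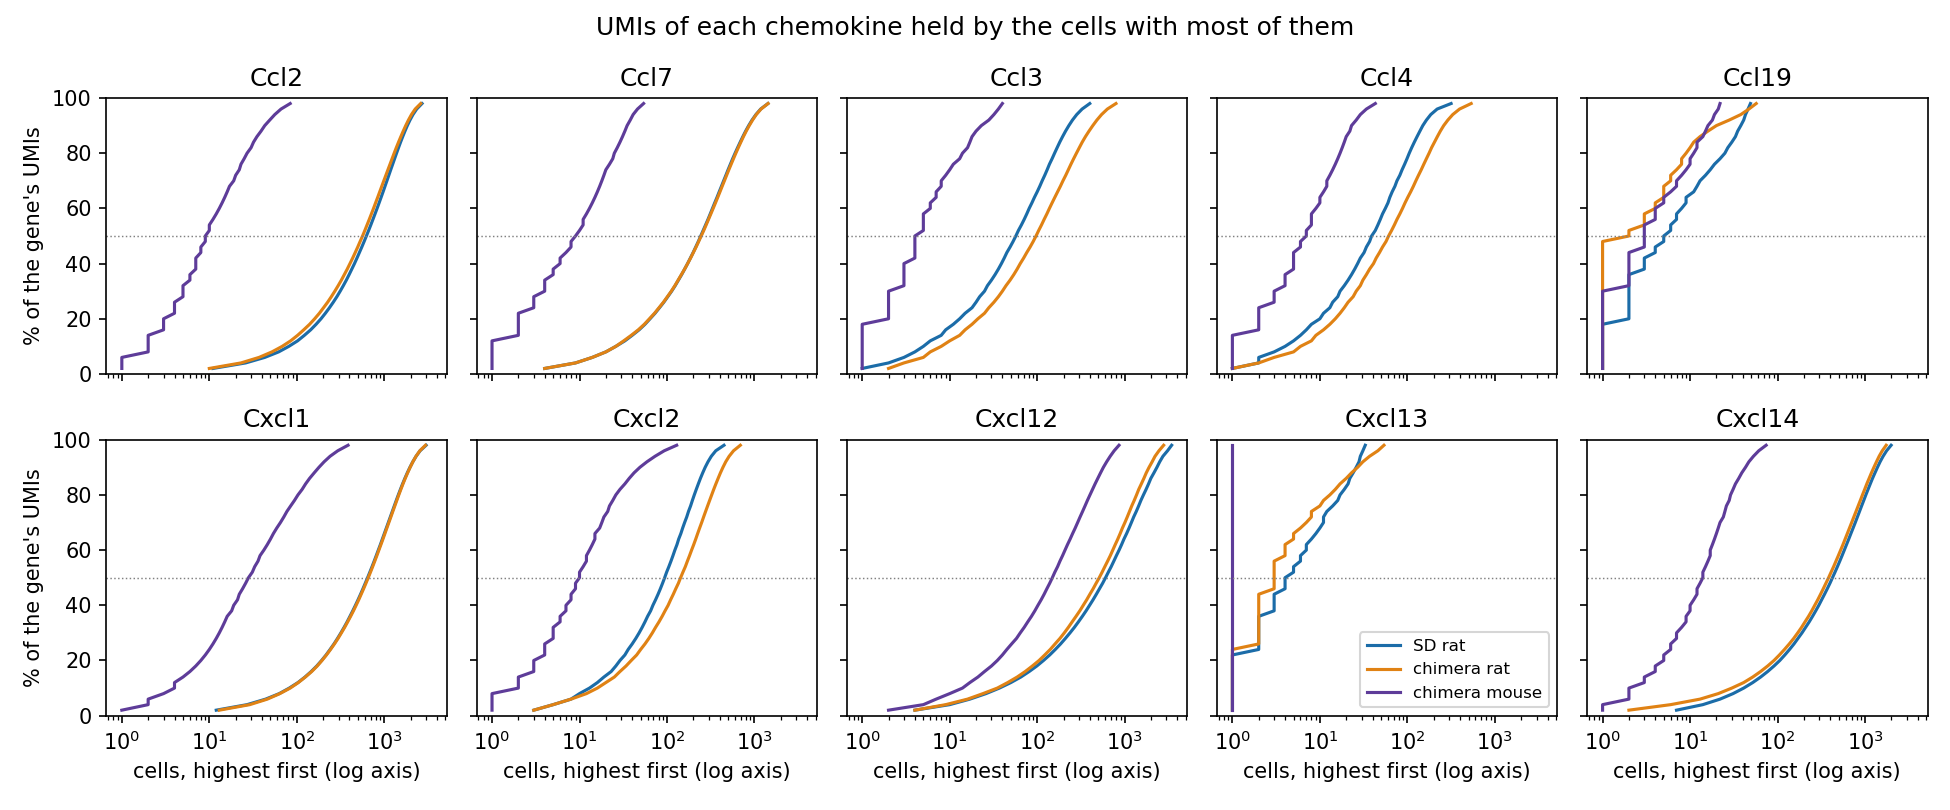
Percentage of each chemokine's UMIs (vertical axis) held by the cells with most of them, ranked from the highest (horizontal axis, number of cells on a log scale), in SD rat, chimera rat and chimera mouse cells, with the dotted line at 50%. In rat cells the line is crossed between 2 cells (Ccl19, chimera) and 655 cells (Cxcl1, chimera), and in mouse cells between 1 cell (Cxcl13) and 149 cells (Cxcl12).

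Rat cells of the chimera were next compared with SD rat cells of the same class, as the log2 ratio of CPM + 1, to ask whether the chemokines of the host cells stood at other levels in the chimera. In FAP-like cells 2 of the 10 genes were at least 2-fold higher and 0 at least 2-fold lower, beside 0.964% and 1.53% of all 12344 genes tested. Both were the rare lymphoid chemokines. Ccl19 stood at 1.51 CPM in SD rat and 15.3 CPM in chimera rat FAP-like cells, a log2 ratio of 2.69 (2.42 to 2.95) that was 1.82 with the first cell of each library left out. Cxcl13 had a log2 ratio of 2.14 (1.88 to 2.40), or 1.98 without the first cells. With a pseudocount of 10 CPM in place of 1 they were 1.13 and 0.92. These ratios rest on the few cells described above, and the intervals take UMIs of 1 cell as independent. The abundant genes of FAP-like cells lay close together, with log2 ratios of −0.32 (−0.33 to −0.31) for Ccl2, −0.06 (−0.06 to −0.05) for Cxcl1, 0.20 (0.18 to 0.22) for Ccl7, 0.18 (0.14 to 0.22) for Cxcl12 and −0.02 (−0.05 to 0.01) for Cxcl14. The median over all genes was 0.07. The Ccl2, Ccl4, Cxcl1 and Cxcl2 ratios of FAP-like cells changed sign when rat cells were limited to at most 10% mouse UMIs.

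In myeloid-like cells all 8 genes with enough UMIs were lower in the chimera, with log2 ratios from −0.23 (Ccl3) to −1.57 (Cxcl14), a median of −0.66, and 0.05 as the median of all genes. None of the 8 was at least 2-fold higher and 2 were at least 2-fold lower, beside 1.73% and 3.14% of all 9727 genes. Those 2 were Cxcl12, at 31.1 CPM in the SD rat and 11.9 CPM in the chimera, and Cxcl14, at 33.1 and 10.5 CPM, both low in this class. Cxcl14 fell to 17.9 CPM in the SD rat without the cell with most UMIs. Its log2 ratio was −1.11 with the first cell of each library left out, and −0.81 at resolution 0.5. Of the UMIs on the rat and mouse copies of Cxcl12 in chimera rat myeloid-like cells, 33.7% were on the mouse gene, and with both copies summed the log2 ratio was −0.84. The abundant myeloid genes gave −0.60 (−0.62 to −0.59) for Ccl2, −0.64 (−0.66 to −0.61) for Ccl7, −0.69 (−0.72 to −0.66) for Ccl4, −0.64 (−0.65 to −0.62) for Cxcl1 and −0.87 (−0.88 to −0.85) for Cxcl2. The myeloid-like cells were made up differently, with 351 of 604 in the C1qa-led cluster in the SD rat and 530 of 1172 in the chimera. Between the C1qa-led clusters alone the levels were 14737 and 10098 CPM for Ccl2, 6136 and 4492 CPM for Ccl7, 15940 and 10755 CPM for Cxcl1, 19245 and 11001 CPM for Cxcl2, and 6294 and 4294 CPM for Ccl4, each lower in the chimera. The S100a9-led clusters ran the other way. In the 33 SD rat and 121 chimera rat cells, the levels were 530.2 and 5896 CPM for Ccl2, 28.7 and 1707 CPM for Ccl7, 802.5 and 8607 CPM for Cxcl1, 759.5 and 8944 CPM for Cxcl2, and 0 and 2908 CPM for Ccl4, at median depths of 3409 and 11945 UMIs. The 2 S100a9-led clusters share a leading gene but may not be the same cells. The SD rat one raised 7 neutrophil or monocyte markers beside 10 myocyte markers, and the chimera one raised 8 beside 10 macrophage markers. A further pair of clusters was led by genes of MHC class II, RT1-Da in 99 SD rat cells and RT1-Db1 in 202 chimera rat cells. Each level was again lower in the chimera, at 7260 and 5352 CPM for Ccl2, 1317 and 1050 CPM for Ccl7, and 2276 and 1812 CPM for Cxcl1. For Cxcl2 the levels were 4334.5 and 2784.9 CPM, and for Ccl4 650.0 and 209 CPM. The lower level in the chimera was thus seen between the C1qa-led and between the MHC class II-led clusters. The S100a9-led pair does not show whether it held in other cells.

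In EC-like cells 1 of 8 genes was at least 2-fold higher and 0 at least 2-fold lower, beside 3.04% and 3.2% of all 9008 genes. The gene was Ccl7, at 69.8 CPM in SD rat and 169 CPM in chimera rat EC-like cells, a log2 ratio of 1.26 (1.07 to 1.46). It stood at 47.2 CPM in the SD rat's Flt1-led cluster and 73.6 CPM in the chimera's Fabp4-led one, and at 228 and 528.5 CPM in the Selp-led and Plvap-led clusters. In the other EC-like clusters it was 44.4 CPM in 428 SD rat cells and 27.1 CPM in 197 chimera rat cells, both led by Flt1 with Dach1 and Mecom among the top genes, and 103 CPM in 459 SD rat cells led by Hbb-b1, a globin gene, so not every cluster was higher in the chimera. Those 428 and 459 SD rat cells were shallow, at medians of 1358 and 718 UMIs, as were the 197 chimera rat cells, at 1564. The 2 SD rat clusters also raised 11 myocyte markers each, beside 10 and 9 EC markers, and the part of this in the result was not tested. The Ccl7 ratio was 0.57 with predicted doublets kept and 1.76 with a minimum of 1000 UMIs per cell. Cxcl12, the endothelial member, had a log2 ratio of 0.01 (−0.06 to 0.07), and Cxcl1 of 0.61 (0.56 to 0.67). EC-like cells had a median of 1859 UMIs in the SD rat and 3431 in the chimera. Among the smaller classes, tenocyte or fibroblast-like cells were higher in the chimera by 0.26 (0.23 to 0.28) for Ccl2 and 0.49 (0.47 to 0.52) for Cxcl1 on the log2 scale. LyEC-like cells, 111 in the SD rat and 83 in the chimera, were higher by 1.20 (1.09 to 1.32) for Cxcl1 and 1.64 (1.20 to 2.09) for Ccl7, and by 4.03 (2.87 to 5.34) for Ccl4, which was 0.94 without the first cells. In T or NK-like cells, 96 and 699, Ccl2 was lower by a log2 ratio of −3.18 (−3.32 to −3.03), or −2.74 without the first cells, and Ccl4 stood at 164 and 201 CPM. In mast cell-like cells Ccl2 had a log2 ratio of −0.01 (−0.04 to 0.03).

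**Figure D4:**
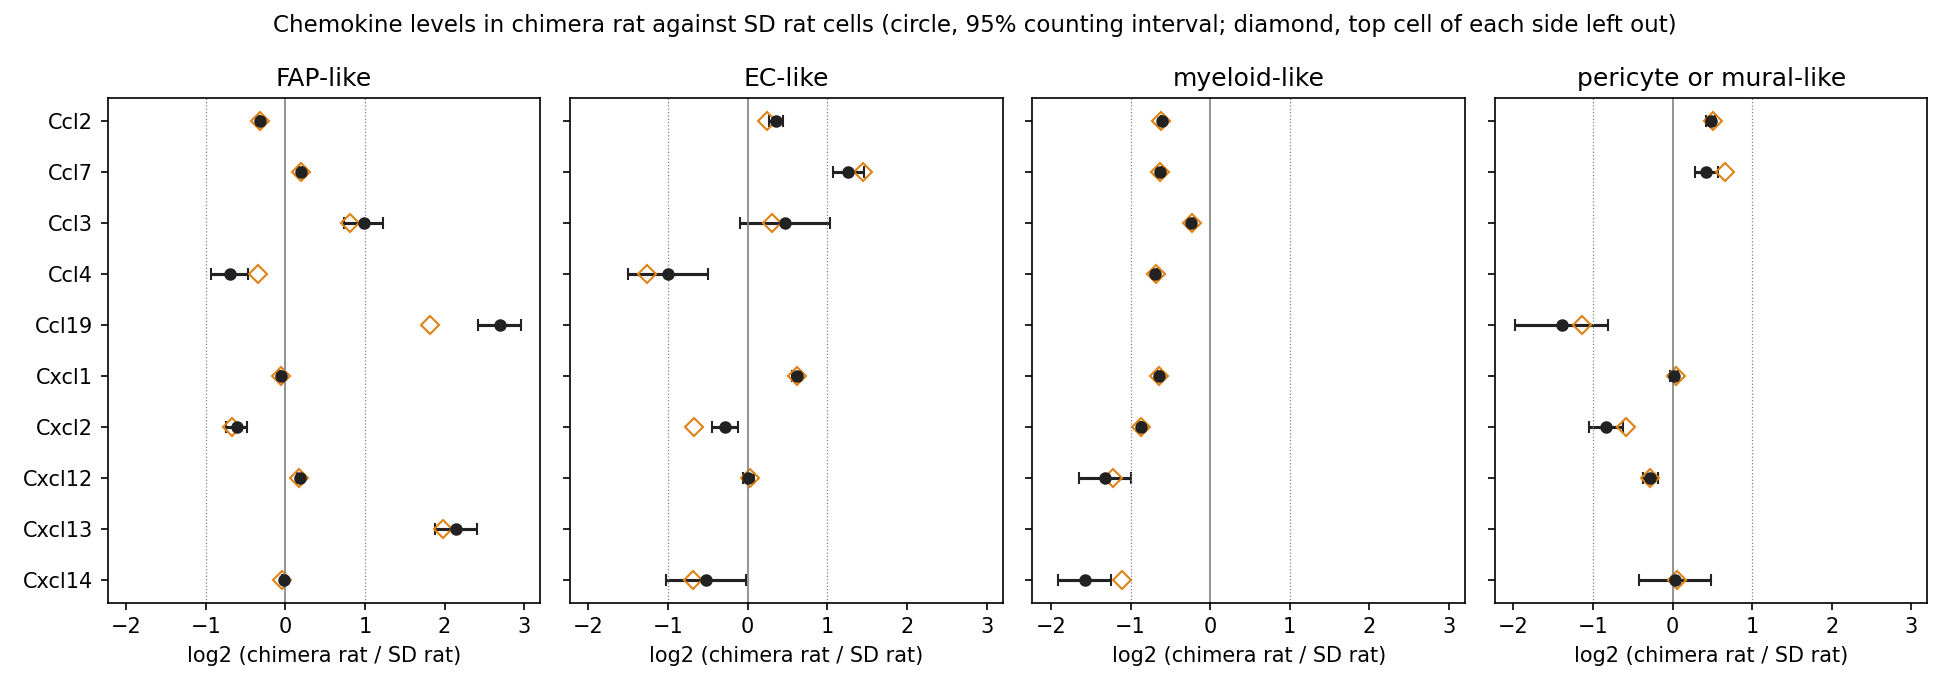
Log2 ratio of the CPM + 1 of chimera rat to SD rat cells for each chemokine with at least 50 UMIs over both libraries, in 4 classes, with circles and bars for the value and its 95% counting interval and diamonds for the value without the cell with most UMIs on each side. Ccl19 and Cxcl13 stand to the right in FAP-like cells, at 2.69 and 2.14, and all 8 genes stand left of 0 in myeloid-like cells.

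Mouse cells of the chimera carried the chemokines in much the same classes as the rat cells, with 8 of 10 leading classes shared, as many as between SD rat and chimera rat cells. Each mouse gene was counted against mouse UMIs. Cxcl12 was led by EC-like cells at 1297 CPM (1269 to 1325), Cxcl14 by FAP-like cells at 1971 CPM (1908 to 2035), and Cxcl2, Ccl3 and Ccl4 by myeloid-like cells at 2642 CPM (2579 to 2706), 67.8 CPM (58.1 to 78.7) and 286 CPM (266 to 308). Ccl2 and Ccl7, led by mast cell-like and myeloid-like cells in the rat, were led by FAP-like cells in the mouse, at 1189 and 936 CPM. The mouse cells had no mast cell-like class to compare, and FAP-like cells came next after that class for rat Ccl2. Cxcl13 was counted in 1 mouse cell, with 9 UMIs. Mouse Ccl19 stood at 24.4 CPM in FAP-like and 22.2 CPM in tenocyte or fibroblast-like cells, with overlapping intervals. The shared leading classes of Cxcl13 and Ccl19 were thus weakly set.

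Between the 128 mouse and 2606 rat FAP-like cells of the same chimera, Ccl2 was 1189 against 8990 CPM, 7.56 times higher in the rat cells, and Cxcl1 2907 against 11440 CPM, 3.94 times higher. Ccl7 was closer, at 936 and 1207 CPM. Cxcl14 and Cxcl2 ran the other way, with 1971 against 646 CPM and 157 against 23.9 CPM, log2 ratios of mouse to rat of 1.61 (1.56 to 1.66) and 2.67 (2.47 to 2.86). In all, 7 of 10 genes were lower in mouse FAP-like cells with an interval clear of 0, 6 of 7 in EC-like cells, where Cxcl12 was the exception at 1297 against 895 CPM, and 7 of 8 in myeloid-like cells. The share of all genes that were lower in mouse cells by the same rule was not computed, so these counts do not set the chemokines apart from other genes. Levels of a rat and a mouse gene are set side by side here without a common scale for how well each gene is captured and mapped. A cluster of 16 mouse FAP-like cells held 9190 CPM of Cxcl14 and the other 112 cells 1028 CPM, so the mouse level rested in part on few cells.

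The mouse myeloid-like cells were unlike one another. The 67 cells led by Lyz2 held 8881 CPM of Cxcl2, 2057 CPM of Cxcl1, 587 CPM of Ccl2 and 554.5 CPM of Ccl4. The 61 and 52 cells of the other clusters, both led by Cd74 with genes of MHC class II next, held 12.0 and 38.5 CPM of Cxcl2 and 1.84 and 24.2 CPM of Ccl2, so that the Cxcl2 and Ccl2 of this class came mainly from 67 of its 180 cells. Mouse UMIs were also concentrated: 50% lay in 10 cells or fewer for 7 of the 10 genes, against 2 of 10 in each rat population, with 1847 mouse cells beside 8230 and 8816 rat cells. The exceptions were Cxcl1 (28 cells), Cxcl14 (14 cells) and Cxcl12 (149 cells, 123 of them EC-like).

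UMIs of rat genes were also counted in the mouse cells, where free rat RNA and mouse reads assigned to a rat gene cannot be told apart. At least 1 UMI of rat Ccl2 was found in 779 of 1847 mouse cells (42.2%), and of rat Cxcl1 in 873 (47.3%). In mouse EC-like cells the share was 40.4% for rat Ccl2, and in rat EC-like cells of the same library 40.8%, at median depths of 5529 and 4048 UMIs of both species. In T or NK-like cells the shares were 41.1% and 43.4%. The shares of rat and mouse cells were thus close and by themselves do not tell Ccl2 of the rat cells from Ccl2 RNA taken up in the droplet, whereas the means differed, at 2.89 Ccl2 UMIs per rat and 0.597 per mouse EC-like cell, and at 1.03 and 0.622 per T or NK-like cell. Cxcl12 was the contrast, with 6.92% of mouse and 67.8% of rat EC-like cells. In myeloid-like cells the rat cells stood above the mouse cells for rat Ccl2 (77.3% and 42.8%), Cxcl2 (69.0% and 7.22%), Ccl3 (66.6% and 5.00%) and Ccl4 (44.7% and 5.56%), and for Ccl7 in EC-like cells the shares were 12.2% and 7.84%, at means of 0.890 and 0.0917 UMIs per cell. The part of such UMIs in the differences between libraries was not tested.

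**Figure D5:**
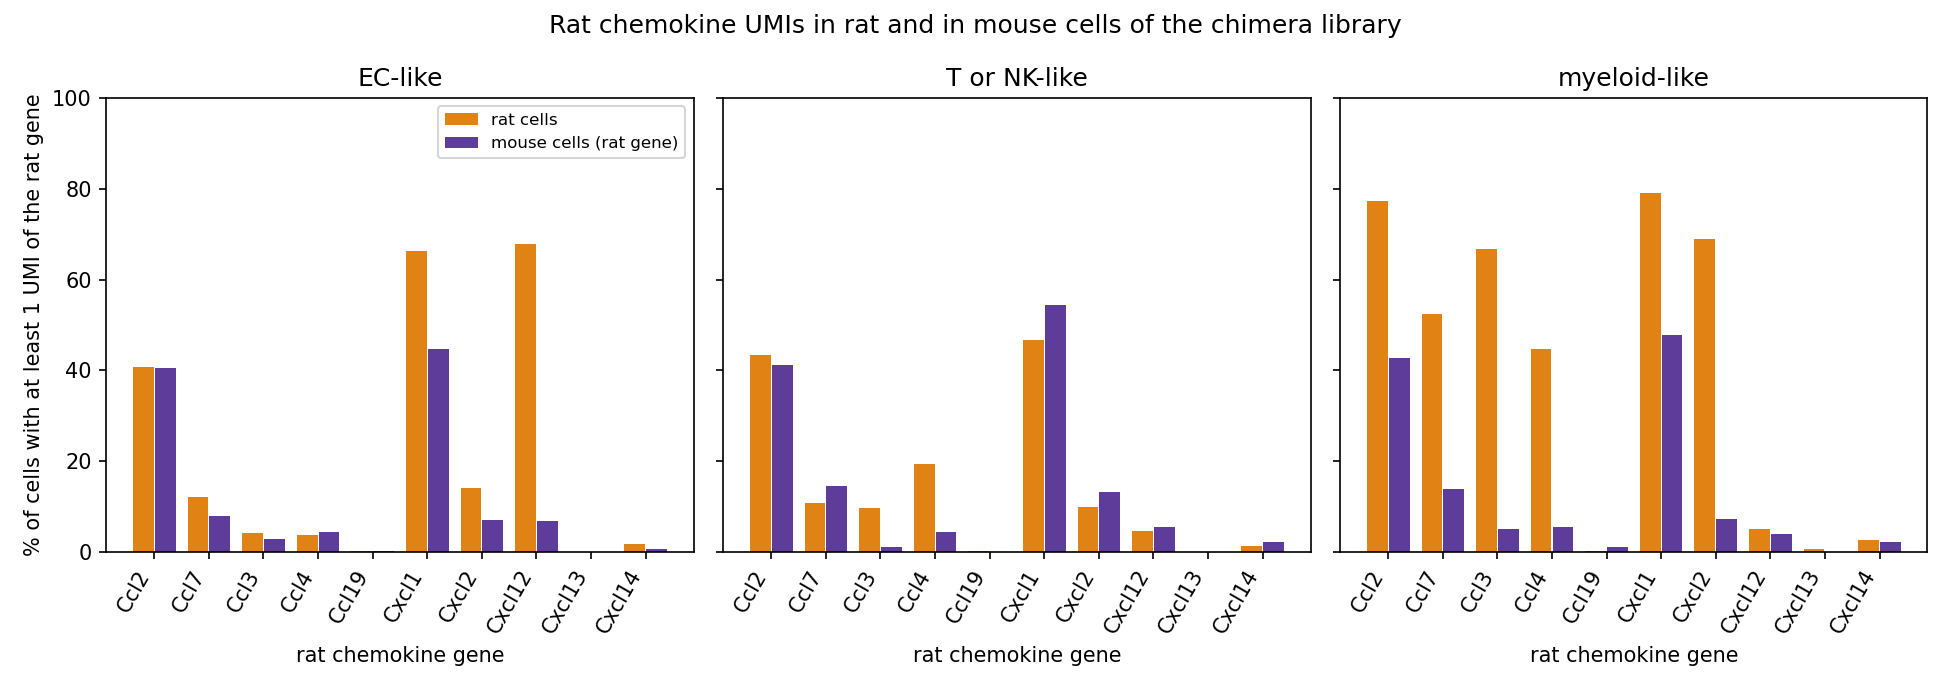
Percentage of cells with at least 1 UMI of each rat chemokine gene in rat cells and in mouse cells of the chimera library, in EC-like, T or NK-like and myeloid-like cells. Rat Ccl2 is found in about the same share of rat and mouse EC-like cells (40.8% and 40.4%), whereas rat Cxcl12 is found in 67.8% and 6.92%.

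The reverse, mouse gene UMIs in rat cells, was also measured, with the same limit. Per cell, mouse Cxcl1 averaged 0.616 UMIs in rat cells and rat Cxcl1 averaged 0.959 UMIs in mouse cells, whereas for Ccl2 the means were 0.00972 and 0.781 UMIs. Of the UMIs on both copies in rat cells, the mouse gene held 6.58% for Cxcl12, 5.34% for Ccl3, 3.97% for Cxcl14, 1.07% for Cxcl1 and 0.0201% for Ccl2. The SD rat library had no mouse genes to lose counts to.

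Across the 57 clusters of SD rat and chimera rat cells with at least 20 cells, the genes whose levels ran most like a chemokine's were also sought, as a description of points that share libraries. Among the genes most like Ccl3 were Slc15a3 and Il1b, the latter encoding an inflammatory cytokine (Pearson r = 0.96 for each). Cxcl14 was most like Col4a4 (0.94), a basement membrane collagen, then Smoc2 (0.93) and C1s (0.92). Ccl4 was most like Ctss (0.90), a protease of antigen-presenting cells. Ccl2 was most like Oaf (0.88) and Ptgs2 (0.87), the inducible cyclooxygenase, Ccl7 like Pid1 (0.86), Cxcl1 like P4hb (0.89), Cxcl2 like Oasl (0.91) and Cxcl12 like Adamts1 (0.86). Ccl19 and Cxcl13 reached at most 42.0 and 33.2 CPM in a cluster, under the minimum of 50 CPM, and the genes most like them are not described.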

How the data were processed

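Skeletal muscle cells of 1 SD rat and 1 rat-mouse chimera were measured by 10x Genomics 3′ scRNA-seq. The deposited files hold unnormalised UMI counts for each gene in each barcode. The submitters' processing notes name Cell Ranger 7.1.0 and the builds mRatBN7.2 and GRCm39. The files show that the chimera was counted on rat and mouse genes together and the SD rat on rat genes alone. Barcodes numbered 13299 (118872850 UMIs) in the chimera and 10117 (70957559 UMIs) in the SD rat. Those with at least 500 UMIs, 200 genes and at most 20% mitochondrial UMIs were kept, and doublets predicted by Scrublet in scanpy 1.11.5 were removed (444 and 164).

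Each population was clustered on its own species' genes without chemokine and chemokine receptor genes (2000 variable genes, 30 components, 15 neighbours, leidenalg 0.10.2, resolution 1). Clusters were named from marker lists, as "X-like". The names are rebuilt and not those of the study. The pooling of myeloid clusters, the split of EC-like from LyEC-like and of T or NK-like cells by killer genes, and the separate cycling class were set after the clusters were seen. The members and lists were chosen with earlier results of these data known.

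UMIs were summed per class. Intervals are exact Poisson, Clopper-Pearson, or, for ratios, from the exact binomial share of the 2 summed counts, at 95%. Ratios used CPM + 1 and genes with at least 50 UMIs over both libraries. No test was run, since each group had 1 library. The code was tested on simulated counts. Where shares were compared at equal depth, cells were thinned to 1000 UMIs. Named were all 10 members, of other ligands and receptors the highest per class of at least 50 cells and those past a log2 ratio of 1 in FAP-like, EC-like or myeloid-like cells, and the 3 genes most correlated with a member on log2 (CPM + 10), among those reaching 50 CPM. Alternatives covered the species threshold, the filters, doublets, clustering genes and resolution, the split of reads between species, the cell with most UMIs, mixed barcodes and the pseudocount.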

Additional observations from a re-analysis of the deposited data

Results flagged for a closer look

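The mixed barcodes of the chimera, which entered no class, also held chemokine UMIs. Over the 1653 barcodes, 43633 UMIs lay on the rat genes and 8010 on the mouse genes of the 10 chemokines. For most genes this was a small part of the library's total, such as 3.57% of rat Ccl2 and 1.13% of rat Cxcl2 UMIs. The part was largest for Cxcl12, at 14.6% of the rat and 24.8% of the mouse gene's UMIs.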

How the results depend on the processing

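Every ratio of chimera rat to SD rat cells compares 1 library with 1 library, so animal, digestion and library cannot be told apart. Of 278 ratios recomputed under 11 alternatives, 166 moved by less than the counting interval, 100 moved further and 12 changed sign, while none of 710 levels could change sign and 244 moved further. With rat cells limited to at most 10% mouse UMIs, the FAP-like log2 ratios of Ccl2, Ccl4, Cxcl1 and Cxcl2 were 0.0218, 0.37, 0.18 and 1.01, and no chimera rat EC-like class was left. With doublets kept, the EC-like ratios of Ccl2, Cxcl1 and Cxcl2 were −0.93, −0.18 and 0.10. With chemokine genes kept in the clustering, those of Ccl4 and Cxcl14 were 0.30 and 0.12. Ccl4 in EC-like cells was also positive at resolution 2 (0.45), at resolution 0.5 (0.0757) and with majority species calls (0.21). The count of values at least 2-fold lower was 1 rather than 2 with a minimum of 1000 UMIs, at resolution 0.5 and with a pseudocount of 10 CPM, and 3 without the cell with most UMIs and with a mitochondrial limit of 10%. The count at least 2-fold higher was 5 rather than 3 with chemokine genes kept, 4 at the 10% limit on mouse UMIs and 2 with a pseudocount of 10 CPM. The causes were not tested. In myeloid-like cells no ratio changed sign under any of the 11 alternatives. The leading class of Ccl7, Ccl3, Ccl4, Cxcl1 and Cxcl2 was the same under all 10 alternatives that recompute it, in each population. Rat Ccl19 was led by mural-like cells in the chimera under 4 of 10 of them. The 8 leading classes shared by SD rat and chimera rat cells became 6 with doublets kept and 9 at resolution 2. The 8 shared by chimera rat and chimera mouse cells became 6 at a species threshold of 90%, and were never more than 8. No paired analysis was possible because each group had 1 library.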

Other observations

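Other chemokine ligands and receptors, from lists of 32 ligands and 23 receptors, completed the picture by class. Ccl21, which guides CCR7-bearing cells into lymphatic vessels, was led by LyEC-like cells at 31984 CPM (31588 to 32384) in the SD rat and 45299 CPM (44809 to 45793) in chimera rat cells. Cxcl3, a further CXCR2 ligand, was the highest of the other ligands in FAP-like cells (561 and 401 CPM) and in myeloid-like cells (4143 and 2794 CPM). Ccl5 led in T or NK-like cells at 3847 CPM in the SD rat, 1751 CPM in chimera rat and 4576 CPM in chimera mouse cells. Pf4 was the highest of the other ligands in mast cell-like cells at 1288 and 1413 CPM, found in 71 of 74 and 52 of 53 cells. In myeloid-like cells Pf4 stood at 1749 CPM in the SD rat and 1391 CPM in chimera rat cells. In the mouse, Cxcl10, an interferon-induced ligand of CXCR3, was the highest of the other ligands in EC-like cells (864 CPM) and FAP-like cells (970.3 CPM).

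Among receptors, Ackr3, a scavenging receptor of CXCL12, was the highest in FAP-like cells (283 CPM in the SD rat, 387 CPM in chimera rat and 269 CPM in chimera mouse cells) and in EC-like cells of the rat (336 and 279 CPM). In mouse EC-like cells the highest was Ackr1, a receptor of venules, at 242 CPM in 9.88% of cells. Ccr7 was the highest in chimera rat T or NK-like (232 CPM) and B cell-like cells (235 CPM), the classes that respond to CCL19 and CCL21. Between chimera rat and SD rat cells, log2 ratios of at least 1 were found in FAP-like cells for Ccl20, Ccl21, Ccr7 and Cxcr4 (1.65, 1.78, 1.41 and 1.21), in EC-like cells for Cxcl11, Ackr1 and Ackr4 (1.10, 1.86 and 1.73) and in myeloid-like cells for Ccl5, Ccl17, Cxcl9 and Ccr7 (1.18, 1.08, 1.29 and 1.26). The numbers of other ligands and receptors tested were 13 and 7 in FAP-like, 9 and 6 in EC-like, and 13 and 8 in myeloid-like cells. Of all genes, 0.964%, 3.04% and 1.73% were at least 2-fold higher in these classes. In FAP-like cells Ccr7 stood at only 2.54 CPM in the chimera and 0.33 CPM in the SD rat, and Cxcr4 at 3.97 and 1.16 CPM. Ratios of at most −1 were found for Pf4 in EC-like cells (−1.13) and for Cxcr2 and Ackr3 in myeloid-like cells (−1.17 and −1.05). Of all genes, 3.2% and 3.14% were as low there. In an alternative added after the data were seen, the cell with most UMIs was left out of each library. The ratios of Ccl21 in FAP-like cells, Ccl5 in myeloid-like cells and Ackr3 in myeloid-like cells were then 0.83, 0.76 and −0.92, no longer past 2-fold, and the others stayed past it. Of the 1160 Ccl21 UMIs of chimera rat FAP-like cells, 975 were in 1 cell, the same that held most Ccl19, and of the 657 Ccl5 UMIs of chimera rat myeloid-like cells, 340 were in 1 cell.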
